A study of Rattus norvegicus with 6 samples.

Results

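The endoplasmic reticulum (ER) folding and quality-control genes described here are a list of 34 gene symbols, and all 34 were found among the 26126 entries of the deposited count table. By role they comprise 3 genes of the ATF6 and IRE1 sensors (Atf6, Ern1 and Xbp1), 10 chaperones and co-chaperones, 7 enzymes of disulfide bond formation, 10 genes of ER-associated degradation (ERAD) and 4 genes of translocation into the ER and export from it. RNA came from H9c2 cells, a myoblast line from embryonic rat heart, and was sequenced in 6 libraries. All cells received an adenovirus and went through simulated ischemia-reperfusion (sIR; "Stimulated" in the labels), with 2-deoxyglucose and lactate in a buffer of pH 6.2 under 95% nitrogen and 5% carbon dioxide, flushed for 30 min and then sealed for 1.5 to 3.5 h. A serum level of 10% is given for all 6 libraries. The control group had a control adenovirus (n = 3), and the other group the adenovirus labelled adPERK (n = 3), which stands for PERK overexpression per the series design; it is called the PERK virus below, by its label. The promoter that drives the transgene was not stated, and no library without sIR was analysed here, so the response to sIR itself was not measured. The labels do not say whether the replicates were separate cultures; p-values therefore reflect only how far these libraries vary, which may be technical variation.

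Proteins that enter the ER are folded by chaperones, joined by disulfide bonds and, if they fail, returned to the cytosol for degradation. When unfolded proteins build up, the unfolded protein response (UPR) is signalled through the membrane sensors PERK, IRE1 and ATF6. IRE1, encoded by Ern1, removes an intron from Xbp1 mRNA so that the XBP1 transcription factor is made, and ATF6 is cut in the Golgi to release its transcription factor part. ATF6 and XBP1 raise chaperone, ERAD and translocation genes, whereas PERK acts by phosphorylating eIF2 alpha, and ATF6 and XBP1 are known to be active in ischemic heart muscle. Counts per gene show neither Xbp1 splicing nor ATF6 cleavage.

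A feature shared by many of the genes is the ER stress element in the promoter. The list holds roles whose genes ATF6 and XBP1 are known to raise, so a high share follows partly from the choice of genes. Shares of the genes count any window of a gene, whereas the comparison is per window. RefSeq windows of the GRCr8 assembly, from 250 bases before to 50 bases after the annotated start, were matched by symbol for 25 of the 34 genes. Atf6, Ern1, Manf, Pdia3, Pdia6, Os9, Derl1, Sec61a1 and Sec24d had no window in the table. The element ERSE, searched on both strands as CCAAT, 9 bases of any kind and CCACG, joins a site for NF-Y (CCAAT) to a site for ATF6 or XBP1 (CCACG). It lay in 7 of the 25 genes (28.0%) and in 0.0657% of all 33469 windows. ERSE-II, searched on both strands as ATTGG, 1 base of any kind and CCACG, lay in 3 of 25 (12.0%) and in 0.0508% of windows, so 10 of 25 genes (40.0%) held one or the other, against 0.117% of windows. The matching stretches are shown because ATF6 and XBP1 are known to act through elements of this kind. Whether these stretches are bound was not tested. They are written 5′ to 3′ on the strand of the gene, with the match in capitals. A match on the opposite strand reads CGTGG first.
Hspa5: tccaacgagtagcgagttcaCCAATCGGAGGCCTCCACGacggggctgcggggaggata
Xbp1: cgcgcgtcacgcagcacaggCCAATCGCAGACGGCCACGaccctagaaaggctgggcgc
Canx: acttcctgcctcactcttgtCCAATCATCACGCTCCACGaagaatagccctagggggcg
Calr: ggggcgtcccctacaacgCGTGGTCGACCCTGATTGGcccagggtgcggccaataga
Creld2: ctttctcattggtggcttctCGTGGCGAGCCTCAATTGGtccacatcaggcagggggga
Derl3: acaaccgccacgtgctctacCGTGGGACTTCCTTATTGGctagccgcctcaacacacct
Hsp90b1: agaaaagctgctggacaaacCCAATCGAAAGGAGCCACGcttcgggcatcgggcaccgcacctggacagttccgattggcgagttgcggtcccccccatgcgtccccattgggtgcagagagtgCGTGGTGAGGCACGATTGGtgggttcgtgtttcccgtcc
Herpud1: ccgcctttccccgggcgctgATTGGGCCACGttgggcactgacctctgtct
Hyou1: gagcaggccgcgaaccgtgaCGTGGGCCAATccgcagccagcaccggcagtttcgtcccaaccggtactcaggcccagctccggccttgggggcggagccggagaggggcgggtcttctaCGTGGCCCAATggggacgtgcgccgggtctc
Dnajb11: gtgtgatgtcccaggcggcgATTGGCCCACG

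In GRCr8 these stretches lie at chr3:38452953-38453011 (+) for Hspa5, chr14:84604538-84604596 (+) for Xbp1, chr10:35158049-35158107 (-) for Canx, chr19:40213117-40213173 (+) for Calr and chr7:121789219-121789277 (+) for Creld2. The others are at chr20:12766581-12766639 (-) for Derl3, chr7:23012327-23012489 (-) for Hsp90b1, chr19:10614801-10614851 (-) for Herpud1, chr8:53602674-53602824 (+) for Hyou1 and chr11:91672800-91672830 (-) for Dnajb11. All lie in or at the edge of the promoter, and the element of Dnajb11 runs over the annotated start. Hsp90b1 held ERSE in both orientations, and Hyou1 held ERSE-II at 2 places. The XBP1-binding element UPRE, searched as TGACGTGG on both strands, matched Hyou1, where it overlaps the first ERSE-II, and Txndc11, that is 2 of 25 genes against 0.595% of windows. The ATF4-binding element CARE, searched as TGATGNAA, matched Herpud1 alone (3.98% of windows), and the cyclic AMP response element TGACGTCA matched none of the 25 genes (1.83% of windows). In the other ER genes followed here, of which 116 had a window, ERSE matched 2 (1.72%, Dnajc3 and Ero1b) and ERSE-II matched 0. UPRE matched 7 of the 116 (6.03%, beside 8.0% of the 25 genes), CARE 3 (2.59%, beside 4.0%) and the cyclic AMP response element 0.

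Of the 34 genes, 0 passed the test between PERK-labelled and control libraries over all genes, against 0.421% of the 14488 tested entries (45 higher, or 0.311%, and 16 lower, or 0.11%). The test was edgeR's quasi-likelihood test on the counts, with Benjamini-Hochberg adjusted p under 0.05. The values below are CPM (counts relative to the TMM-scaled total of each library), which are not per length, so levels are compared between libraries and not between genes. In RNA from whole cultures, fewer cells that express a gene and less RNA per cell cannot be told apart. All 34 genes passed the low-count filter and were above 0 in all 6 libraries. The log2 fold changes, PERK-labelled over control, had a median of 0.05, against -0.0045 over all tested entries, and 23 of 34 lay above 0 (67.6%, against 48.7%). The lowest adjusted p was 0.169, for Sec61a1.

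Small differences were mostly in 1 direction. At an unadjusted p under 0.05 there were 6 genes (17.6%, against 11.2% of tested entries in either direction): Sec61a1, Hspa5, Herpud1, Creld2, Derl1 and P4hb. All 6 were higher in PERK-labelled libraries and 0 were lower, against 5.94% of tested entries higher and 5.29% lower; that direction was read from the data. With 1 library left out the count at this p ranged from 3 to 8: it was 8, 5 and 3 without control replicate 1, 2 or 3, and 3, 4 and 5 without PERK replicate 1, 2 or 3. The groups did not overlap for 10 genes. Of these 9 were higher (26.5%, against 9.66% of tested entries), namely the 6 above with Os9, Xbp1 and Canx, and 1 was lower, Dnajb11 (2.94%, against 8.54%). Among entries with a mean of 10 CPM or more the shares higher without overlap were 29.0% of the 31 genes that reach it and 12.9% of 8298 entries, those lower without overlap 1 of 31 and 9.26%, those at an unadjusted p under 0.05 19.4% and 15.5% in either direction (higher alone, 19.4% and 8.87%), and those past edgeR's adjusted test 0 of 31 and 0.711%. No test of the list as a whole was made, and none of these differences passed the adjustment over all genes.

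**Figure D1:**
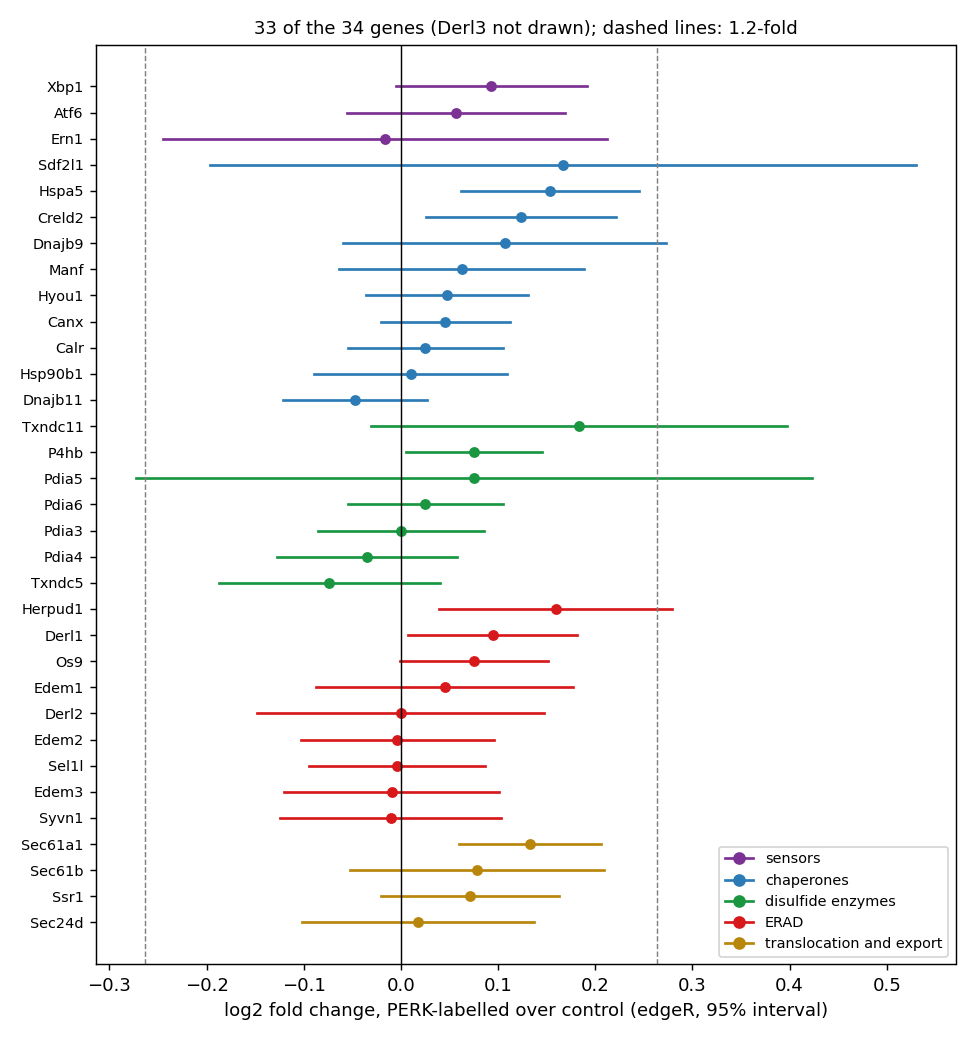
Points give the log2 fold change (PERK-labelled over control, 3 libraries each) from edgeR and lines its 95% interval, for 33 genes grouped by role. All 33 points lie between -0.07 and 0.18, and 28 intervals stay inside the dashed lines at 1.2-fold in either direction; Derl3, at -0.67 with an interval from -2.43 to 1.09, is not drawn.

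The intervals show how large a change could have been present, given only the spread between these libraries. The 95% interval of the fold change stayed within 1.2-fold in either direction for 28 of 34 genes and within 1.5-fold for 33. The 6 with an interval reaching beyond 1.2-fold were Sdf2l1, Dnajb9, Txndc11, Pdia5, Herpud1 and Derl3. Replicates were close to each other: the SD of log2 CPM within groups had a median of 0.05 over the 34 genes, 0.12 over all tested entries and 0.08 over entries with a mean of 10 CPM or more.

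Among the sensors, Xbp1 was slightly higher in every PERK-labelled library and Atf6 and Ern1 were not separated between groups. Xbp1, the transcription factor made after IRE1 splicing, stood at 45.8, 43.9 and 42.5 CPM under the control virus, against 46.2, 47.2 and 47.7 CPM under the PERK virus (each in replicate order). The groups did not overlap, but control replicate 1 and PERK replicate 1 were nearly level, and the log2 fold change of 0.09 (SE 0.04) did not pass the test (edgeR adjusted p = 0.467). Atf6 was 125, 136 and 134 CPM with the control virus, against 133, 134 and 143 CPM with the PERK virus, with control replicate 1 the lowest, PERK replicate 3 the highest and the other 4 close together. Its log2 fold change was 0.06 (SE 0.05). Ern1, which encodes IRE1, was 9.87, 9.77 and 9.15 CPM with the control virus, against 10.1, 8.65 and 9.75 CPM with the PERK virus. The highest and the lowest Ern1 values were both in PERK-labelled libraries, and its log2 fold change was -0.02 (SE 0.10). For comparison, Eif2ak3, which encodes PERK itself, was 26.4, 26.9 and 23.9 CPM with the control virus, against 26.5, 26.5 and 25.9 CPM with the PERK virus. Its log2 fold change was 0.03 (95% interval -0.10 to 0.16). These counts therefore do not show the overexpression that the label names, and the labels could not be checked by them.

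Of the 10 chaperones and co-chaperones, 9 had a log2 fold change above 0, and the median was 0.06. Hspa5, which encodes BiP, the HSP70 of the ER that also holds the sensors inactive, was 542, 533 and 528 CPM under the control virus, against 621, 600.3 and 562 CPM under the PERK virus (each in replicate order). Each PERK-labelled library lay above each control library, with PERK replicate 3 the nearest to them. The difference was 11.2% (95% interval 4.38% to 18.5%; log2 fold change 0.15, SE 0.04, edgeR adjusted p = 0.198). DESeq2, which called 4.02% of the entries it adjusted, called Hspa5 higher (DESeq2 adjusted p = 0.00351).

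The HSP90 of the ER did not show this separation. Hsp90b1, which encodes it (GRP94), was 635, 657 and 621 CPM with the control virus, against 682, 621 and 624 CPM with the PERK virus. Only PERK replicate 1 was above the control libraries, and the log2 fold change was 0.01 (SE 0.04). Hspa5 and Hsp90b1 both hold ERSE in the promoter, as shown above.

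The lectin chaperones calnexin and calreticulin, which hold newly glycosylated proteins in the calnexin cycle, differed little. Calr, for calreticulin, was 1243, 1202 and 1169 CPM with the control virus, against 1243, 1228 and 1206 CPM with the PERK virus, and the groups overlapped. Canx, for calnexin, was 539, 543 and 531 CPM with the control virus, against 569, 551 and 545 CPM with the PERK virus. The Canx groups did not overlap, though control replicate 2 and PERK replicate 3 nearly met, and its log2 fold change was 0.05 (SE 0.03).

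Creld2, an ER protein with disulfide isomerase activity, was 35.1, 34.8 and 34.4 CPM with the control virus, against 38.0, 39.3 and 36.5 CPM with the PERK virus. Its groups were apart, and the log2 difference reached 0.12 (SE 0.04) with an edgeR adjusted p of 0.325. Dnajb11, the BiP co-chaperone ERdj3, was the 1 gene lower without overlap, at 211, 204 and 203 CPM with the control virus, against 199, 200.4 and 198 CPM with the PERK virus. That difference was -0.05 on the log2 scale (SE 0.03, edgeR adjusted p = 0.636), the smallest size among the 10 genes without overlap after Canx. Sdf2l1, which works with Dnajb11, was 11.4, 8.09 and 8.05 CPM with the control virus, against 10.1, 11.5 and 9.27 CPM with the PERK virus, so control replicate 1 lay among the PERK-labelled values. The remaining chaperones had overlapping groups. The log2 fold changes were 0.11 (SE 0.07) for Dnajb9, the BiP co-chaperone ERdj4 and an XBP1 target, 0.05 (SE 0.04) for Hyou1, a large HSP70-like protein of the ER, and 0.06 (SE 0.05) for Manf, a secreted protein that binds BiP.

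**Figure D2:**
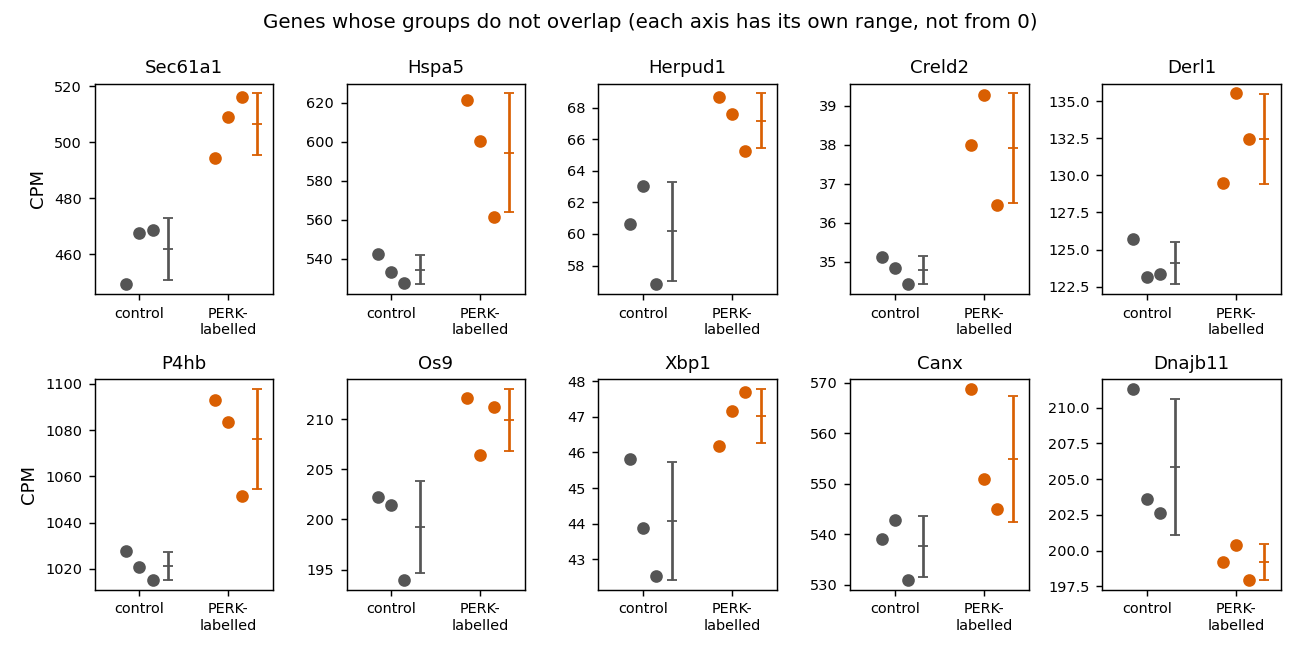
CPM in each library (points, replicates 1 to 3 from left to right) for the 10 genes whose groups do not overlap, with mean and SD of each group beside them; each panel has its own axis, which does not start at 0. PERK-labelled libraries are above control libraries in 9 panels and below them for Dnajb11, and the gap between groups is narrow for Xbp1 and Canx.

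Among the 7 enzymes of disulfide formation, 4 had a log2 fold change above 0, and the median was 0.02. P4hb, which encodes protein disulfide isomerase, was 1028, 1021 and 1015 CPM with the control virus, against 1093, 1083 and 1052 CPM with the PERK virus. All PERK-labelled values were above all control values, by 5.36% (95% interval 0.339% to 10.6%; log2 fold change 0.08, SE 0.03, edgeR adjusted p = 0.403). Pdia6, another isomerase, was 424, 425 and 408 CPM with the control virus, against 442, 416 and 421 CPM with the PERK virus, and the groups overlapped. Txndc11, a thioredoxin-like ER membrane protein, had a log2 fold change of 0.18 (SE 0.09, edgeR adjusted p = 0.509), which ranged from 0.12 without PERK replicate 2 to 0.26 without control replicate 2. It was 15.6, 18.4 and 15.6 CPM with the control virus, against 18.2, 20.4 and 17.7 CPM with the PERK virus, so control replicate 2 overlapped them. Txndc5, a disulfide isomerase with thioredoxin domains, was 217, 203 and 198 CPM with the control virus, against 185, 201 and 201 CPM with the PERK virus, a difference of -0.07 on the log2 scale (SE 0.05). Here control replicate 1 was the highest and PERK replicate 1 the lowest, and the other 4 libraries were close together. The glycoprotein-specific isomerase Pdia3 (ERp57) had a log2 fold change of -0.00016 (SE 0.04), Pdia4 (ERp72) -0.04 (SE 0.04) and Pdia5 0.08 (SE 0.15), all with overlapping groups.

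ERAD had a median log2 fold change of -0.0020, with 4 of 10 genes above 0; leaving out 1 library at a time gave medians from -0.02 to 0.02, so its sign is not settled. Herpud1, a membrane protein that supports the HRD1 ubiquitin ligase complex, was 60.6, 63.0 and 56.8 CPM with the control virus, against 68.7, 67.6 and 65.3 CPM with the PERK virus. Its groups were apart, with a difference of 11.7% (95% interval 2.78% to 21.3%; log2 fold change 0.16, SE 0.05, edgeR adjusted p = 0.29). Besides ERSE-II, the Herpud1 window was the 1 window of the 25 genes to hold the ATF4-binding element. That share of 4.0% equals about the 3.98% of all windows.

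Derl1 and Os9 were also higher in every PERK-labelled library. Derl1, a derlin of the channel that returns proteins to the cytosol, was 126, 123 and 123 CPM with the control virus, against 129, 136 and 132 CPM with the PERK virus (log2 fold change 0.09, SE 0.04, edgeR adjusted p = 0.395). Os9, a lectin that hands misfolded glycoproteins to the HRD1 complex, was 202, 201 and 194 CPM with the control virus, against 212, 206 and 211 CPM with the PERK virus (log2 fold change 0.08, SE 0.03, edgeR adjusted p = 0.451). The core of the same complex did not differ in this way. Sel1l, its adaptor, was 178, 189.6 and 178 CPM with the control virus, against 179, 179 and 186 CPM with the PERK virus, with the highest value in control replicate 2. Syvn1, the ubiquitin ligase HRD1 itself, had a log2 fold change of -0.01 (SE 0.05).

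The mannose-trimming proteins Edem1, Edem2 and Edem3, which mark glycoproteins for degradation, had log2 fold changes of 0.05, -0.0036 and -0.0096. Derl2, a derlin related to Derl1, was at -0.00039 (SE 0.06). Groups overlapped for all of these. Derl3, the derlin known mainly from secretory tissues, was near the limit of detection, with 30, 32 and 11 counts under the control virus, against 21, 25 and 7 counts under the PERK virus. Its log2 fold change of -0.67 has an SE of 0.77, so a difference was not detectable at this depth. Low counts pile up near multiples of 6 in the table: over the 6 libraries 1798 values equal 6 and 1968 equal 7, but 609 equal 8, and 1216 equal 12 but 401 equal 14.

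Translocation and export held the gene with the lowest p of the 34, Sec61a1, and all 4 genes were above 0 (median log2 fold change 0.07). Sec61a1 encodes the pore subunit of the Sec61 channel, through which new proteins enter the ER. It was 449, 468 and 469 CPM under the control virus, against 494, 509 and 516 CPM under the PERK virus (each in replicate order). The groups were apart by more than their SDs, 462 ± 11 and 506 ± 11.1 CPM (SD, n = 3). The difference was 9.65% (95% interval 4.25% to 15.3%; log2 fold change 0.13, SE 0.03), which ranked 248 of 14488 by p and did not pass edgeR's test (adjusted p = 0.169), while DESeq2 called it (adjusted p = 0.00202). Limma voom called none of the 34 genes (0.759% of entries), and the authors' deposited table lists none with adjusted p under 0.05, where 2.27% of entries pass. There the lowest adjusted p of the 34 is 0.254, for Herpud1.

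The other genes of this role had overlapping groups. The 95% intervals of Sec61b (-0.05 to 0.21) and Ssr1 (-0.02 to 0.16) include the 0.13 of Sec61a1, and the difference between these genes was not tested. Sec61b, the beta subunit, had a log2 fold change of 0.08 (SE 0.06) with overlapping groups. Ssr1, a subunit of the translocon-associated complex, was 161, 164 and 159 CPM with the control virus, against 176, 163 and 169.7 CPM with the PERK virus, where PERK replicate 2 fell within the control range. Sec24d, a cargo adaptor of the COPII coat that carries proteins out of the ER, was 83.9, 88.5 and 87.0 CPM with the control virus, against 86.4, 83.5 and 92.7 CPM with the PERK virus. Its lowest and highest values were both in PERK-labelled libraries.

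Summed over each role, the levels differed by a few percent. The 34 genes together were 7719, 7683 and 7506 CPM with the control virus, against 8022, 7857 and 7778 CPM with the PERK virus, 3.27% higher in the mean of the latter. Without Hspa5 and Sec61a1 the difference was 2.19%, with overlap. Translocation and export summed to 769 ± 11.5 CPM (SD, n = 3) with the control virus, against 826 ± 10.2 CPM with the PERK virus, a difference of 7.43% that became 4.08% without Sec61a1, with overlap. ERAD sums were 794 ± 19.4 and 821 ± 12.1 CPM, and their groups nearly met, at 811 CPM in control replicate 2 and 811 CPM in PERK replicate 2. The sums of sensors, chaperones and disulfide enzymes overlapped between groups. No test was made on sums, because a few genes with high counts set them.

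**Figure D3:**
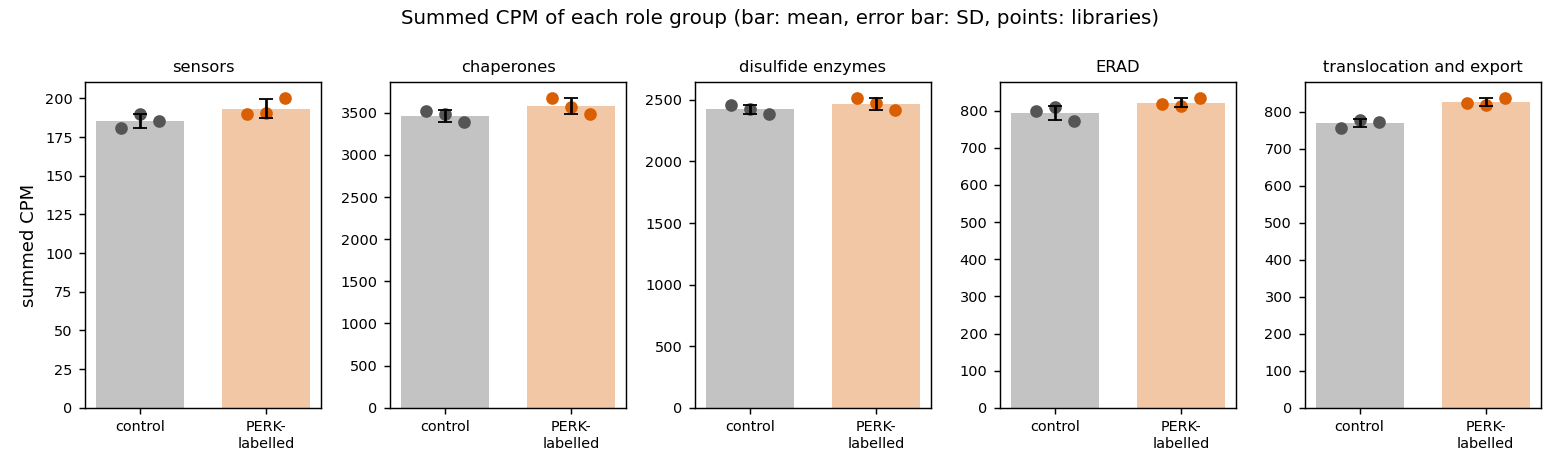
Summed CPM of the genes of each role by group, with bars for the mean, error bars for the SD and points for the 3 libraries of each group; axes start at 0. The groups are apart for translocation and export and for ERAD, narrowly so for the latter, and overlap for the other roles.

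Which library was high or low differed between roles. Of the 34 genes, 18 (52.9%) had the lowest value of all 6 libraries in control replicate 3, against 18.1% of all tested entries. That library also had 19287 entries above 0, against 15377 to 16685 in the other 5; its part in these results was not tested beyond leaving it out. Folding genes and ERAD genes differed in which PERK-labelled library was high. PERK replicate 1 was above PERK replicate 3 for 9 of 10 chaperones and 6 of 7 disulfide enzymes, but for 3 of 10 ERAD genes; over all tested entries it was above for 7241 and below for 7167. This order was noticed in the data and was not tested. Without PERK replicate 1 the median log2 fold change of the disulfide enzymes was -0.03.

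**Figure D4:**
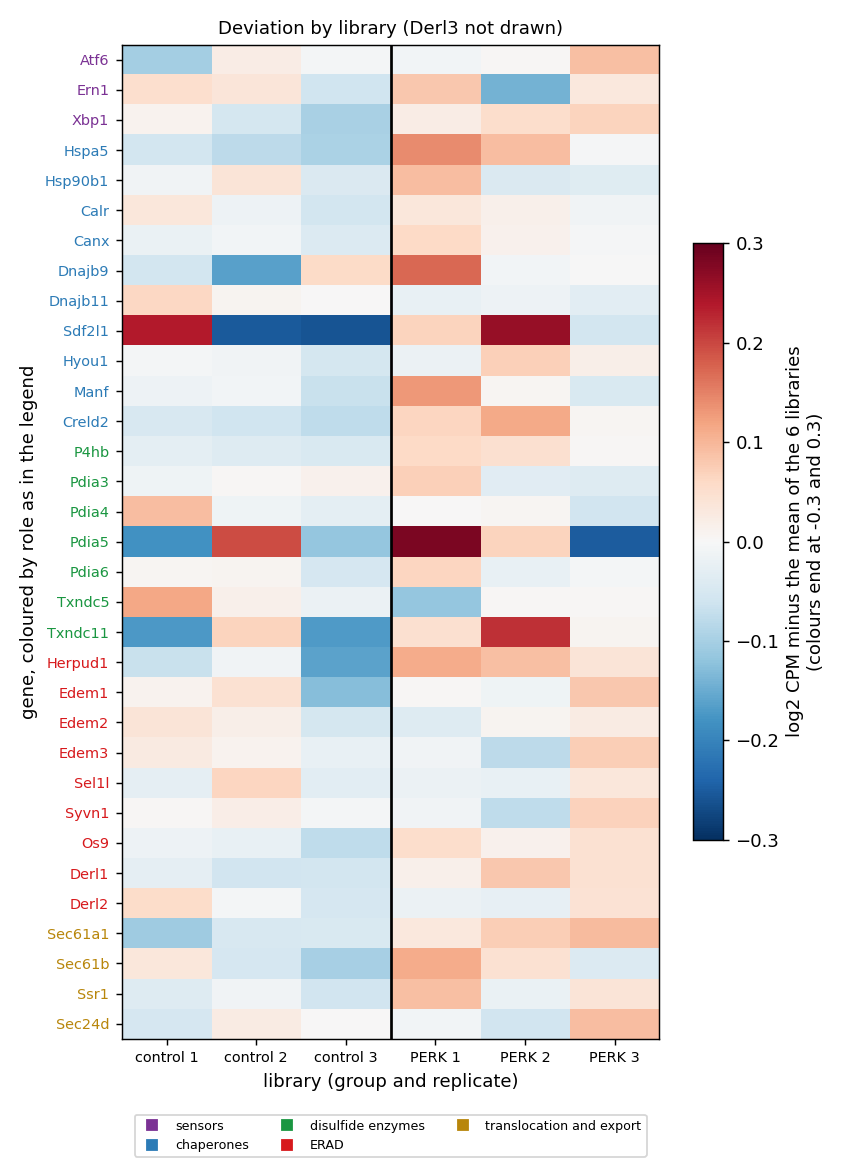
Each row is 1 of 33 genes (Derl3 not drawn), each column a library, and the colour gives log2 CPM minus the mean of that gene over the 6 libraries. Control replicate 3 is mostly blue, and PERK replicate 1 is redder for chaperones while PERK replicate 3 is redder for most ERAD genes.

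Fold changes can also be set beside the promoter elements, as a description without a test. The 10 genes with ERSE or ERSE-II had a median log2 fold change of 0.05 (range -0.67 to 0.16), the 15 genes with a window but neither element 0.05 (range -0.07 to 0.18), and the 9 genes without a window 0.06. At an unadjusted p under 0.05 were 3 of the 10 (Hspa5, Creld2 and Herpud1), 1 of the 15 (P4hb) and 2 of the 9 (Derl1 and Sec61a1). Over all tested entries the share was 11.2% in either direction and 5.94% higher. Of the other 7 genes with an element, Xbp1 was at 0.09 and Canx at 0.05, both higher without overlap, Hsp90b1, Calr, Hyou1 and Dnajb11 ranged from -0.05 to 0.05, and Derl3 was at -0.67. These counts describe letters in the windows and say nothing of factor binding.

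The rest of the ER pathway, followed in 5 lists, gave 0 genes past the test among 130 tested (edgeR; DESeq2 called 2). At an unadjusted p under 0.05 there were 11 (8.46%, against 11.2% of tested entries), 9 higher (6.92%, against 5.94%) and 2 lower (1.54%, against 5.29%). The 130 had a median log2 fold change of 0.02, with 82 above 0. Sensing and signalling had 0 of 13 past the test, with Tmbim6, an ER membrane protein that restrains cell death, at 0.01. Folding and glycan control had 0 of 35, with Serpinh1, the collagen chaperone HSP47, at -0.0070. ERAD had 0 of 31, with Vcp, the ATPase that pulls proteins from the membrane, at 0.07. Translocation and N-glycosylation had 0 of 32, with Rpn2, a subunit of oligosaccharyltransferase, at 0.0036. At an unadjusted p under 0.05 this list had 3 higher (9.38%, against 5.94% of tested entries) and 0 lower (against 5.29%). These were Srpra (0.15), Spcs2 (0.14) and Hm13 (0.11), named after their values were seen. COPII export had 0 of 19, with Kdelr2, a receptor that returns ER proteins from the Golgi, at 0.07. The 2 that DESeq2 called were Sec13, a COPII coat protein (0.16, DESeq2 adjusted p = 0.0163), and Calu, a calcium-binding ER protein (0.08, DESeq2 adjusted p = 0.0107), both chosen for naming after their values were seen.

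The PERK branch, which crosses these genes, had 1 of 8 genes past the test. Ppp1r15a, the GADD34 phosphatase subunit, rose from 75.4 ± 0.31 to 119.9 ± 4.54 CPM (SD, n = 3), by 0.67 on the log2 scale (edgeR adjusted p = 0.00204), while Atf4 and Ddit3 were at 0.14 and -0.0012 (edgeR adjusted p = 0.19 and 0.998). At an unadjusted p under 0.05 there were 4 of the 8 (50%, against 11.2% of tested entries in either direction and 5.94% higher). All 4 were higher without overlap (9.66% of tested entries): Ppp1r15a, Atf4, Trib3 (0.24), a pseudokinase, and Chac1 (0.32), which breaks down glutathione. Nfe2l2 was lower without overlap (8.54% of tested entries), at -0.04 (SE 0.04, edgeR adjusted p = 0.784). The difference between branches was not tested.

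As facts of all 6 libraries, total counts ranged from 77923398 to 119087414, and the 34 genes took 0.751% to 0.79% of them. Mitochondrial entries took 16.5% to 17.7% of counts. Of the 12 markers of the muscle line, Vim, Myog, Tnnt2, Acta1, Myh3 and Myod1 were at 73.6 CPM or more in every library, Des, Actc1 and Gata4 at 2.53 to 5.98 CPM, cardiac Nkx2-5 and Myh6 at or near 0 and Myf5 at 0. The 12 summed to 2607 to 2668 CPM in control and 2760 to 2844 CPM in PERK-labelled libraries, of which Vim, which is not specific to muscle, took 61.1% to 68.1%. Without Vim the other 11 summed to 934, 997 and 1027 CPM with the control virus, against 918, 907 and 955 CPM with the PERK virus, so the direction of the mean turned and the groups overlapped. Among the 12, Myog, the myogenic factor myogenin, fell (log2 fold change -0.28, edgeR adjusted p = 0.0137). Summed markers of endothelium (6 of 7 found) were 1.35 to 2.14 CPM in control and 0.638 to 1.33 CPM in PERK-labelled libraries, and those of leukocytes (8 of 9) 8.54 to 12.4 and 9.97 to 11 CPM. Epithelial markers (7 of 7) summed to 48.7 to 52.8 and 53.2 to 54.2 CPM, of which Krt8 alone was 38.8 to 41.6 CPM, with Krt19 at 0 and Krt18 at most 0.109 CPM. The part of these markers in the values above was not tested.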

How the data were processed

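The authors' deposited table gives whole-number counts per gene for 6 libraries of H9c2 cells, used as deposited. Bowtie 0.12.2 and build mm9 are named in the submitters' processing notes, yet the cells are of rat; no source names the counting program or the build used for it. The authors' deposited log2 fold changes and adjusted p-values were used only where named. Another table, with 6 per-sample columns matching no label, was not used.

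Counts were fitted in edgeR 4.0.16 (R 4.3.3) with TMM scaling, filterByExpr (minimum count 10), glmQLFit and glmQLFTest on group alone, over all 14488 entries kept, with Benjamini-Hochberg adjustment at 0.05. Standard errors and 95% intervals follow from the F statistic. Steps were tested on simulated data with changes set in entries with a mean of 5 CPM or more. The test recovered 5 of 50 changes of 1.2-fold and 31 of 50 changes of 1.5-fold, so most 1.2-fold changes in such entries would be missed. The median SD of log2 CPM within groups was 0.05 for the 34 genes and 0.12 over all tested entries. The recovered share therefore need not hold for the 34 genes, which were not simulated apart. Alternatives used DESeq2 1.42.0, limma 3.58.1 (voom), other scalings, filters and a replicate block, and left out each library in turn.

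The genes and lists were chosen with earlier results of these data known. Values are printed per library for the sensors, for the 2 genes of highest mean CPM and the highest and lowest fold change in each role, and for genes whose groups do not overlap, pass the test or have a library at 0; each other list names up to 3 changed genes, else the 1 of highest mean CPM, and Eif2ak3, Atf4, Ddit3 and Ppp1r15a stand for the PERK branch. Promoter sequences are from RefSeq (GRCr8).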

Additional observations from a re-analysis of the deposited data

How the results depend on the processing

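The 34 genes had 0 calls in every alternative except DESeq2, which gave 2 (2 higher, Sec61a1 and Hspa5) and 2 other pathway genes, and it also called Atf4 (0.14) and Trib3 (0.24). Over all entries the test called 61 (45 higher, 16 lower). DESeq2 called 372 (249 and 123) and limma voom 110 (83 and 27). Dropping the low-count filter gave 94 (63 and 31), raising it to 100 gave 82 (53 and 29), the robust option gave 132 (94 and 38), and dividing counts by 6 gave 93 (63 and 30). Leave-one-out fits gave 12 to 38 (7 to 23 higher, 4 to 15 lower): 38, 26 and 23 when control replicate 1, 2 or 3 was dropped, but 12, 21 and 14 when PERK replicate 1, 2 or 3 was. The replicate block gave 9 (7 and 2). Deviations of same-numbered libraries correlated at -0.06, 0.01 and 0.03 over 14488 entries. No pairing by number was visible in the counts, which cannot exclude one, and the labels do not state one. Fold changes that changed sign were all within 0.08 of 0 on the log2 scale. Derl2 turned to 4.3e-05 with the replicate block, to 1.6e-04 without mitochondrial entries in the totals and to 0.0037 with no filter. Pdia3 turned to 3.7e-04 without mitochondrial entries and to 0.0040 with no filter. With no filter Edem2 turned to 5.2e-04, Sel1l to 1.4e-04 and Ddit3 to 0.0029, and Ddit3 to 3.1e-04 with counts divided by 6. Leaving out 1 library at a time gave -0.0601 to 0.0462 for Ern1, -0.0333 to 0.0335 for Hsp90b1, -0.0356 to 0.0209 for Pdia3, -0.0581 to 0.00291 for Pdia4, -0.0553 to 0.205 for Pdia5, -1.73e-04 to 0.0416 for Pdia6, -0.00480 to 0.0783 for Edem1, -0.0298 to 0.0162 for Edem2. It gave -0.0480 to 0.0258 for Edem3, -0.0208 to 0.0259 for Sel1l, -0.0476 to 0.0240 for Syvn1, -0.0249 to 0.0270 for Derl2, -0.0241 to 0.0499 for Sec24d, -0.0200 to 0.0602 for Eif2ak3, -0.114 to 0.0791 for Ddit3 and -0.0113 to 0.0416 for Eif2s1. The cause was not tested. Sec61a1 stayed between 0.11 and 0.15 and Hspa5 between 0.12 and 0.19 with 1 library left out. The median of the 34 genes ranged from 0.03 to 0.06 over the alternatives, and the number above 0 from 22 to 29. Intervals cover the spread between these libraries only, and Derl3 is limited by its counts.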

Other observations

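The ratio of Hspa5 to Hsp90b1 counts, noticed after their values were seen, was 0.854, 0.811 and 0.850 under the control virus, against 0.911, 0.967 and 0.900 under the PERK virus. The groups did not overlap. This ratio is free of library scaling, and no test was made on it.

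Surf4, a cargo receptor that cycles between the ER and the Golgi, was singled out after its values were seen. It had 28436, 22239 and 20024 counts under the control virus, against 26501, 33657 and 4798 counts under the PERK virus, so PERK replicate 3 stood far below the other 5 libraries at 53.6 CPM, against 257 to 281 CPM.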
